A study of Homo sapiens with 15 samples.

Results

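The genes described here are markers by which pathologists and laboratories recognise tumours of ovarian serous type. The list holds 10 genes, PAX8, WT1, MUC16, MSLN, WFDC2, FOLR1, ESR1, SOX17, MECOM and MUC1, and was taken by symbol from a table of 16604 genes. A row was found for 9 of the 10, PAX8 (ENSG00000125618), WT1 (ENSG00000184937), MUC16 (ENSG00000181143), MSLN (ENSG00000102854), WFDC2 (ENSG00000101443), FOLR1 (ENSG00000110195), SOX17 (ENSG00000164736), MECOM (ENSG00000085276) and MUC1 (ENSG00000185499). ESR1, the estrogen receptor alpha gene, had no row and was not analysed here. Expression was measured by RNA sequencing of polyA libraries from 5 human cell lines with 3 biological replicates each, 15 samples in all. OVCAR4 is an established human line modelling high-grade serous tumours of the ovary, and the samples labelled Ovcar4Parental are sensitive to carboplatin and cisplatin, platinum drugs that crosslink DNA. Ov4Cis (cisplatin resistant) and Ov4Carbo (carboplatin resistant) were selected from it in rising drug concentrations until the IC50, the dose that inhibits growth by 50%, had increased 2 to 10 times. Ov4Carbo4 and Ov4Carbo7, labelled carboplatin resistant, were each grown from a single cell of Ov4Carbo, so each represents 1 clone. All lines were grown in the same medium with 10% serum and 1% antibiotic, and no genotype differences are given in the labels. Whether platinum drug was present at harvest is not given in the sources used here.

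Most high-grade serous cancers are thought to arise from secretory cells of the fallopian tube, an epithelium of Müllerian origin. PAX8 and SOX17 are transcription factors that work together in this lineage, MECOM encodes a zinc finger factor of the same regulatory circuit, and WT1 is a zinc finger factor used in diagnosis because serous tumours usually stain for it. The other measured members are products at or beyond the cell surface. MUC16 carries the serum antigen CA125, WFDC2 is the secreted protein HE4, MSLN is mesothelin, a surface protein that binds MUC16, FOLR1 is folate receptor alpha, and MUC1 is a transmembrane mucin of epithelial surfaces. MSLN, FOLR1 and MUC1 are also targets of antibody drugs.

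The promoters of 5 members are shown as a description. MUC16, WFDC2 and MUC1 were called lower than in the parental line in some resistant lines, not all in the same ones. MECOM and PAX8 were not called lower. These genes were chosen with their values known, so the windows do not test a cause of the changes. The windows run from 250 bases before to 50 bases after an annotated start, are given 5′ to 3′ along the gene's strand, and come from RefSeq on GRCh38.p14. Of the 10 genes, 7 matched that table with 19 windows. MSLN, FOLR1 and SOX17 did not match. Where a gene has several starts the first listed is shown. Capitals mark CAGGTG or its reverse complement CACCTG, an E-box that the repressors ZEB1 and SNAI1 are known to bind.
MUC16, chr19:9065702-9066001, minus strand: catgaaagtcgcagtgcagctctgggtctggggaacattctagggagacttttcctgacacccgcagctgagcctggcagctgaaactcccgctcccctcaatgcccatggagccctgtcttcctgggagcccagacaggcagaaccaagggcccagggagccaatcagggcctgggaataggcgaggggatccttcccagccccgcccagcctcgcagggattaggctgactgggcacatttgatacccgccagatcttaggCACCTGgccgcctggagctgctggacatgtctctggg
WFDC2, chr20:45469503-45469802, plus strand: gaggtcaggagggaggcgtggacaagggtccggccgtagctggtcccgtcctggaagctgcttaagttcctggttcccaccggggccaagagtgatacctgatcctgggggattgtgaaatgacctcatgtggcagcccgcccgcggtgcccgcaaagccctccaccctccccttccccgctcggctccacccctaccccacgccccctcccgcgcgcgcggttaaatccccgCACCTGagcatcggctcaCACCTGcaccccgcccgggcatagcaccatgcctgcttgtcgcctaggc
MUC1, chr1:155192866-155193165, minus strand: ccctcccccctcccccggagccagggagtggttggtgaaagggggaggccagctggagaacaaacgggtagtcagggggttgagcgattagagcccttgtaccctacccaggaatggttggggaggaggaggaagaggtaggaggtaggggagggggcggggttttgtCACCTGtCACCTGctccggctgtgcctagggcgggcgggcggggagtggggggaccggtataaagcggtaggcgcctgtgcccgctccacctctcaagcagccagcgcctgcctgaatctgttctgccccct
MECOM, chr3:169663663-169663962, minus strand: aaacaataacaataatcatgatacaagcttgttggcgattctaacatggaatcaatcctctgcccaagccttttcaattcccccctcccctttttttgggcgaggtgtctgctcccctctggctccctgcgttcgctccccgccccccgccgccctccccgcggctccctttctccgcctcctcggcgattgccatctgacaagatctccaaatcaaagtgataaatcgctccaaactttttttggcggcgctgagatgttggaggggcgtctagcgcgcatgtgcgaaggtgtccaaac
PAX8, chr2:113278872-113279171, minus strand: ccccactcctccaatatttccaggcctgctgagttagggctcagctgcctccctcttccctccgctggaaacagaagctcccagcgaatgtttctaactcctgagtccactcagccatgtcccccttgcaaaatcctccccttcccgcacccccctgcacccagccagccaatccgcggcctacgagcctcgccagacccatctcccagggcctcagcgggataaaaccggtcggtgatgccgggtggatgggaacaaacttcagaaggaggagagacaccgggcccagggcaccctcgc

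The E-box letters occurred 1 time in each of the 2 MUC16 windows, 2 times in the WFDC2 window and 2 times in each of the 2 overlapping MUC1 windows. They were absent from the PAX8 window, the 3 MECOM windows, the 4 WT1 windows and the 6 ESR1 windows. Of all 35116 promoter windows of this length, 20.6% held the E-box. Counted from the start, the copies began at -17 and 1 in the WFDC2 window, at -82 and -75 in the first MUC1 window, and at 13 in the first MUC16 window. The same windows were searched on both strands for 6 other motifs. The letters AACCGGTT, which Grainyhead-like factors of epithelial cells bind, occurred in 0.134% of all windows. The core of ETS factor sites, CCGGAA, occurred in 17.2% of them. A core of TEAD factor sites, GGAATG, was found in 14% of the windows, and the SOX factor core was searched as AACAAT, found in 10.1%. The GC box of general promoters, searched as GGGCGG, was present in 45%. The TATA box was searched as TATAAA and was present in 11.5%. None of these letters contains another motif. The first MUC1 window held TATAAA and GGAATG 1 time each and GGGCGG 4 times. GGGCGG also occurred 2 times in the WFDC2 window and 1 time in the first MUC16 window. The first MECOM window held AACAAT and GGGCGG 2 times each, and the PAX8 window held none of the 7. A match describes the letters in the window only, since no binding was measured.

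Values are log2 RPKM (reads normalised for gene length and for the library total) after conditional quantile normalization (cqn) by the authors. They are on a per-length scale, so levels can be set beside each other between genes. The median over genes was 2.77 in every sample, so a change in total RNA per cell is not measurable here. No read totals were used, so the depth is unknown and precision can be judged only from the spread of the 3 replicates. In these bulk samples fewer cells that express a gene and less RNA per cell cannot be told apart. The lowest value of a sample lay between -8.18 and -7.68, and a log2 RPKM below 0 means under 1 RPKM, where fold changes depend on how the authors treated low values. A change was called when limma's adjusted p was under 0.05 and the log2 fold change was at least 1 in size, in a model fitted to all genes, with all 10 pairs of lines compared. Replicate 1 of Ov4Carbo lay nearer to Ov4Carbo7 (mean root-mean-square difference 0.89 log2 units) than replicates 2 and 3 did (1.13 and 1.07), so results on Ov4Carbo were also computed without it.

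All 9 measured members differed among the 5 lines by limma's moderated F-test (adjusted p from 6.76e-08 for MSLN to 0.00254 for SOX17), but 76.9% of all genes did so too. What set the members apart from each other was size. The line means of MUC16 spanned 6.32 log2 units, a range wider than that of 98.4% of genes, and those of MSLN spanned 4.99, wider than 96.3%. The means of PAX8 spanned 0.89, MECOM 0.95 and SOX17 1.10, wider than only 52.3%, 55.7% and 64% of genes. The ranges of the PAX8, SOX17 and MECOM circuit thus lay near the middle of those of all genes, while the surface and secreted products varied far more. Genes of every level were ranked together, and these factors were not compared with genes of similarly high level. WT1, also a transcription factor, spanned 3.56, wider than 92.4% of genes, at line means under 1 RPKM. The lowest line means of MUC16, MSLN and FOLR1 were also under 1 RPKM, where log2 ranges are less certain.

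**Figure D1:**
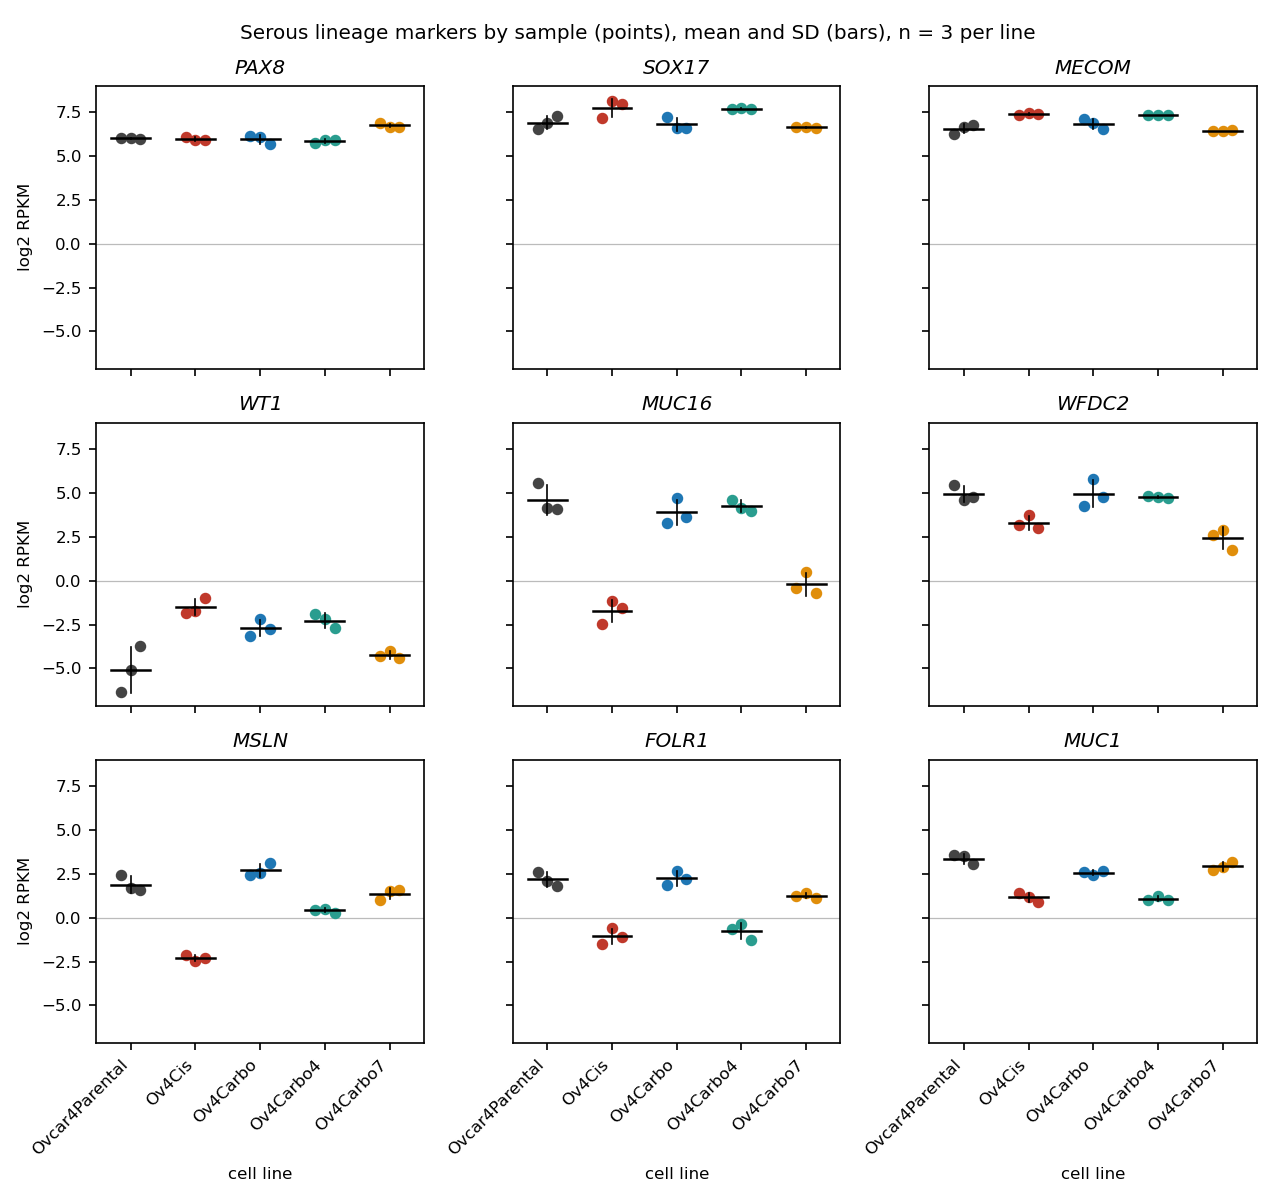
Level of each of the 9 measured markers in log2 RPKM (vertical axis, same scale in all panels) in the 5 cell lines (horizontal axis), with 1 point per sample, the mean as a horizontal bar and the SD as a vertical bar (n = 3). PAX8, SOX17 and MECOM lie between 5.66 and 8.12 in every sample, MUC16 and WFDC2 are lowest in Ov4Cis and Ov4Carbo7, and MSLN, FOLR1 and MUC1 are lowest in Ov4Cis and Ov4Carbo4.

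PAX8 was kept at a high level in all 5 lines. Its log2 RPKM was 6.05, 6.01 and 5.97 in the parental replicates, 6.09, 5.92 and 5.90 in Ov4Cis, 6.12, 6.09 and 5.66 in Ov4Carbo, 5.74, 5.91 and 5.91 in Ov4Carbo4, and 6.87, 6.68 and 6.68 in Ov4Carbo7. The 3 Ov4Carbo7 values lay above all 12 others, and the other 4 lines followed one another closely. Ov4Carbo7 was higher than the parental line by 0.73 log2 units (SE 0.12, limma adjusted p = 4.61e-04), below the size needed for a call. In Ov4Cis, PAX8 differed from the parental line by -0.04, with a 95% interval from -0.31 to 0.23, and in Ov4Carbo by -0.05 (-0.32 to 0.21). The mean level placed PAX8 above at least 92.7% of the genes in each line.

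SOX17 and MECOM were also abundant everywhere, and were highest in Ov4Cis and Ov4Carbo4. SOX17 stood at 6.55, 6.90 and 7.28 log2 RPKM in the parental replicates, 7.18, 8.12 and 7.97 in Ov4Cis, and 7.66, 7.74 and 7.71 in Ov4Carbo4. Ov4Carbo had 7.22, 6.58 and 6.61, and Ov4Carbo7 had 6.68, 6.66 and 6.62. MECOM stood at 6.27, 6.63 and 6.76 in the parental replicates, 7.34, 7.43 and 7.39 in Ov4Cis, 7.34, 7.35 and 7.36 in Ov4Carbo4, 7.09, 6.86 and 6.55 in Ov4Carbo, and 6.43, 6.43 and 6.46 in Ov4Carbo7. For MECOM the Ov4Cis and Ov4Carbo4 samples lay above all 9 others, while for SOX17 replicate 1 of Ov4Cis overlapped parental replicate 3 and replicate 1 of Ov4Carbo.

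Against the parental line SOX17 was higher by 0.85 log2 units in Ov4Cis (SE 0.25, limma adjusted p = 0.0167) and by 0.79 in Ov4Carbo4 (SE 0.25, adjusted p = 0.0222). MECOM was higher by 0.83 (SE 0.14, adjusted p = 5.01e-04) and 0.80 (SE 0.14, adjusted p = 7.35e-04) in the same lines. These are folds of 1.73 to 1.80 and below the size for a call. For SOX17 in Ov4Cis the difference reached it without Ov4Cis replicate 1 (1.14) or without parental replicate 3 (1.03). Between the clones SOX17 was called, lower in Ov4Carbo7 than in Ov4Carbo4 by -1.05 (SE 0.25, adjusted p = 0.00342), and MECOM differed by -0.91 (SE 0.14, adjusted p = 1.78e-04). SOX17 was also called higher in Ov4Cis than in Ov4Carbo7, by 1.10 (adjusted p = 0.00356), but without Ov4Cis replicate 2 the difference was 0.92 and not called, and without Ov4Cis replicate 3 it fell just below 1. The levels of SOX17 and MECOM moved together over the 15 samples, with a Pearson r of 0.90, where the replicates of a line share that line's value.

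SOX17 is also a gene of arterial endothelium, and of 4 endothelial markers with a row 1 was called higher in Ov4Cis and in Ov4Carbo4. CDH5, the VE-cadherin gene, stood at 2.46 ± 0.14 log2 RPKM in the parental line, 5.13 ± 0.16 in Ov4Cis and 4.42 ± 0.15 in Ov4Carbo4 (SD, n = 3 each). In Ov4Cis it rose by 2.67 (SE 0.14, limma adjusted p = 2.48e-08). Of 8 endothelial markers listed, 4 had a row, and their summed level, in which CDH5 was the highest gene of both lines, ran from 39.7 to 52.7 RPKM in Ov4Cis and 25.8 to 31.4 in Ov4Carbo4, against 10.7 to 13.4 in the parental line. The other 3 were not called higher in these lines. ERG, an endothelial transcription factor, differed from the parental line by 0.81 in Ov4Cis and 0.05 in Ov4Carbo4, neither called, and VWF by -0.35 and 0.02. KDR, a VEGF receptor gene, fell by 1.77 in Ov4Carbo4 (SE 0.42, limma adjusted p = 0.00526) and was not called in Ov4Cis. Over the 4 markers the median log2 fold change was 0.90 in Ov4Cis and 0.04 in Ov4Carbo4. KDR and VWF had means below log2 RPKM 0 in every line, and PECAM1, TEK, EMCN and CLDN5 had no row. The part of these markers in the SOX17 result was not tested.

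WT1 was close to the bottom of the measured range in all 5 lines, so these lines do not carry it as an abundant transcript. The parental replicates had -6.37, -5.11 and -3.74 log2 RPKM, Ov4Cis -1.85, -1.71 and -0.98, Ov4Carbo -3.15, -2.20 and -2.73, Ov4Carbo4 -1.91, -2.19 and -2.70, and Ov4Carbo7 -4.29, -4.01 and -4.40. Its highest line mean, in Ov4Cis, was 0.363 RPKM, and only 7.4% of genes had a lower mean in that line. WT1 was called higher than in the parental line in Ov4Cis by 3.56 (SE 0.51, limma adjusted p = 1.47e-04), in Ov4Carbo4 by 2.81 (SE 0.51, adjusted p = 9.16e-04) and in Ov4Carbo by 2.38 (SE 0.51, adjusted p = 0.00375). Recomputed as log2(RPKM + 1), which compresses changes at low levels, these were 0.39, 0.22 and 0.16, and none was called. When Ov4Carbo and the parental line were fitted alone, the Ov4Carbo call was also lost (adjusted p = 0.0589). WT1 was thus under 1 RPKM on average in every line.

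MUC16 showed the largest change of the 9 members, and in only part of the resistant lines. The parental replicates had 5.60, 4.12 and 4.07 log2 RPKM, Ov4Carbo 3.32, 4.70 and 3.66, and Ov4Carbo4 4.62, 4.16 and 4.0. Ov4Carbo7 had -0.44, 0.50 and -0.70, and Ov4Cis had -2.44, -1.17 and -1.57. The 6 samples of Ov4Cis and Ov4Carbo7 lay below all 9 others by more than 2 log2 units, and the other 3 lines overlapped. In mean RPKM the level went from 27.6 in the parental line to 0.922 in Ov4Carbo7 and 0.321 in Ov4Cis. MUC16 fell by 6.32 log2 units in Ov4Cis (SE 0.49, limma adjusted p = 7.96e-07), an 80.1-fold change, and by 4.81 in Ov4Carbo7 (SE 0.49, adjusted p = 9.40e-06), a 28-fold change. On the log2(RPKM + 1) scale the falls were -4.26 and -3.74.

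The other carboplatin lines did not show this loss. MUC16 differed from the parental line by -0.70 in Ov4Carbo, with a 95% interval from -1.77 to 0.37, and by -0.34 in Ov4Carbo4 (-1.41 to 0.73). The clone Ov4Carbo7 fell by 4.11 against the population it came from (SE 0.49, limma adjusted p = 7.39e-05) and by 4.47 against its sister clone (SE 0.49, adjusted p = 1.28e-05). By the order of means MUC16 was similar in the parental line, Ov4Carbo4 and Ov4Carbo, with neighbours not passing, then dropped to Ov4Carbo7 and Ov4Cis. The further difference between Ov4Cis and Ov4Carbo7, -1.52 (adjusted p = 0.0274), was not called on the log2(RPKM + 1) scale (-0.52, adjusted p = 0.285). It was also lost with a term for the number series in the sample titles (-2.37, adjusted p = 0.0665), without Ov4Cis replicate 1 or Ov4Carbo7 replicate 2 (-1.16 each) and without Ov4Cis replicate 3 (-1.60, adjusted p = 0.0538).

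WFDC2 was low in the same lines as MUC16, from a similar starting level, but was not lost. Its log2 RPKM was 5.47, 4.60 and 4.78 in the parental replicates, 4.28, 5.81 and 4.78 in Ov4Carbo and 4.82, 4.77 and 4.74 in Ov4Carbo4. Ov4Cis had 3.16, 3.77 and 3.01, and Ov4Carbo7 had 2.62, 2.92 and 1.75. Again the 6 samples of Ov4Cis and Ov4Carbo7 lay below the other 9, but with 10.2 and 5.70 RPKM on average they still expressed the gene, against 32.0 in the parental line. WFDC2 fell by 2.52 in Ov4Carbo7 (SE 0.39, limma adjusted p = 2.34e-04) and by 1.64 in Ov4Cis (SE 0.39, adjusted p = 0.00531). The order of these lines was the reverse of that for MUC16, but the difference between them, 0.88, did not pass (adjusted p = 0.0921). In Ov4Carbo7 the fall against Ov4Carbo was of the same size, -2.52 (adjusted p = 3.83e-04), and against Ov4Carbo4 it was -2.35 (adjusted p = 2.98e-04). Across the 15 samples MUC16 and WFDC2 had a Pearson r of 0.87, with samples grouped by line.

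MSLN, FOLR1 and MUC1 followed another pattern, in which the low lines were Ov4Cis and the clone Ov4Carbo4. MSLN stood at 2.43, 1.67 and 1.56 log2 RPKM in the parental replicates, 2.45, 2.54 and 3.13 in Ov4Carbo, 0.99, 1.55 and 1.56 in Ov4Carbo7, 0.46, 0.50 and 0.29 in Ov4Carbo4 and -2.12, -2.47 and -2.28 in Ov4Cis. Every Ov4Cis sample lay at least 2 log2 units below every other sample, and the Ov4Carbo4 samples lay between these and the rest. MSLN fell by 4.18 in Ov4Cis (SE 0.24, limma adjusted p = 7.53e-08), from 3.85 to 0.206 RPKM, and by 1.47 in Ov4Carbo4 (SE 0.24, adjusted p = 4.77e-04). In Ov4Carbo it was higher than in the parental line, by 0.82 (SE 0.24, adjusted p = 0.0222), below the size for a call, which it reached without parental replicate 1 (1.09). Both clones were below the population they came from, Ov4Carbo4 by -2.29 (adjusted p = 2.54e-05) and Ov4Carbo7 by -1.34 (adjusted p = 0.00121).

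FOLR1 had 2.62, 2.10 and 1.82 log2 RPKM in the parental replicates and 1.87, 2.68 and 2.18 in Ov4Carbo. Ov4Carbo7 had 1.22, 1.41 and 1.12, Ov4Carbo4 had -0.64, -0.36 and -1.29, and Ov4Cis had -1.47, -0.59 and -1.12. The samples of Ov4Cis and Ov4Carbo4 overlapped each other and lay below the other 9. FOLR1 fell by 3.24 in Ov4Cis (SE 0.30, limma adjusted p = 3.53e-06) and by 2.94 in Ov4Carbo4 (SE 0.30, adjusted p = 1.02e-05), 9.43 and 7.69 times lower than in the parental line, where its mean was 4.65 RPKM. In Ov4Carbo7 the difference was -0.93 (adjusted p = 0.0242), not called, and in Ov4Carbo it was 0.07 with a 95% interval from -0.58 to 0.71. The Ov4Carbo7 value was called without parental replicate 3 (-1.11) or without Ov4Carbo7 replicate 2 (-1.01). FOLR1 resembles other folate receptor genes in sequence, so the assignment of some reads is uncertain.

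MUC1 had 3.56, 3.50 and 3.04 log2 RPKM in the parental replicates, 2.63, 2.41 and 2.67 in Ov4Carbo and 2.70, 2.88 and 3.20 in Ov4Carbo7. Ov4Carbo4 had 1.01, 1.25 and 1.02, and Ov4Cis had 1.40, 1.18 and 0.91. As for FOLR1, Ov4Cis and Ov4Carbo4 overlapped and all 6 lay below the other samples. MUC1 fell by 2.28 in Ov4Carbo4 (SE 0.18, limma adjusted p = 1.13e-06) and by 2.21 in Ov4Cis (SE 0.18, adjusted p = 9.76e-07), 4.84 and 4.61 times lower than the parental mean of 10.5 RPKM. In Ov4Carbo it was lower by -0.80 (adjusted p = 0.00425), below the size for a call. Over the 15 samples MUC1 and FOLR1 had a Pearson r of 0.89, and MUC1 and MECOM one of -0.92. MUC1 and MUC16, both mucins, had only 0.27.

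Between the clones from 1 population 6 of 9 members were called, against 20.9% of all genes. FOLR1 was higher in Ov4Carbo7 than in Ov4Carbo4 by 2.01 (SE 0.30, limma adjusted p = 1.25e-04) and MUC1 by 1.84 (SE 0.18, adjusted p = 4.20e-06). MUC16, WFDC2, SOX17 and, at levels under 1 RPKM, WT1 were lower in Ov4Carbo7. The WT1 difference was -1.97, and as log2(RPKM + 1) it was -0.20 and not called. Against Ov4Carbo, 3 members were called in Ov4Carbo4 (MSLN, FOLR1 and MUC1, all lower, with 14.2% of all genes called) and 4 in Ov4Carbo7 (MUC16, WFDC2, MSLN and WT1, all lower, with 13.3% of all genes called). Without Ov4Carbo replicate 1 there were 4 and 5 of 9, adding SOX17 as higher in Ov4Carbo4 (1.11) and FOLR1 as lower in Ov4Carbo7 (-1.18). Replicate 1 is the only Ov4Carbo sample in the clones' number series of sample titles. Without it, line and series cannot be told apart in these comparisons. With a term for the series SOX17 was 0.48 (limma adjusted p = 0.285) and FOLR1 -0.62 (adjusted p = 0.332), neither called. FOLR1 in Ov4Carbo7 was also called without Ov4Carbo replicate 3 (-1.03) or Ov4Carbo7 replicate 2 (-1.07). The WT1 call in Ov4Carbo7 was lost on the log2(RPKM + 1) scale (-0.14) and without Ov4Carbo replicate 2 or 3 or any 1 replicate of Ov4Carbo7 (-1.65 to -1.29). With the series term it was lost too (-1.08, limma adjusted p = 0.34).

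Counted against the parental line, the cisplatin-selected line had the most members called. In Ov4Cis 6 of 9 passed, 5 lower (all the surface and secreted products) and WT1 higher, where 15.9% of all genes were called. In Ov4Carbo4 there were 4 of 9, with MSLN, FOLR1 and MUC1 lower and WT1 higher, against 15.1% of all genes. In Ov4Carbo7 there were 2 of 9, MUC16 and WFDC2, both lower, against 17% of all genes. In Ov4Carbo 1 of 9 was called, WT1, against 12.7% of all genes, a share near the background. Over the 9 members the median log2 fold change was -1.64 for Ov4Cis, 0.01 for Ov4Carbo, -0.17 for Ov4Carbo4 and -0.44 for Ov4Carbo7, beside 0.04, 0.03, 0.07 and 0.02 over all genes. These comparisons share the 3 parental samples. Without parental replicate 1 MSLN joined WT1 in Ov4Carbo, and without parental replicate 3 the Ov4Carbo7 count was 4, with FOLR1 and WT1 (1.51) added. Ov4Cis also had 5 of 9 members called lower against Ov4Carbo (13.8% of all genes called), 3 lower against Ov4Carbo4 (16.8%), and 4 lower and 2 higher against Ov4Carbo7 (14.7%). Against Ov4Carbo4 the members were MUC16 (-5.99), MSLN (-2.70) and WFDC2 (-1.46), and on the log2(RPKM + 1) scale MSLN was -0.95 and not called. Without Ov4Carbo replicate 1 the count against Ov4Carbo was 6.

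The order of line means gave few clear steps. For PAX8 the only step between neighbours that passed at an adjusted p under 0.05 was that from Ov4Carbo7 down to the parental line. SOX17 and MECOM each had 1 such step, below Ov4Cis and Ov4Carbo4, and for MUC1 it lay above these lines. For MSLN every step passed except that from the parental line to Ov4Carbo7 (0.52, limma adjusted p = 0.106).

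**Figure D2:**
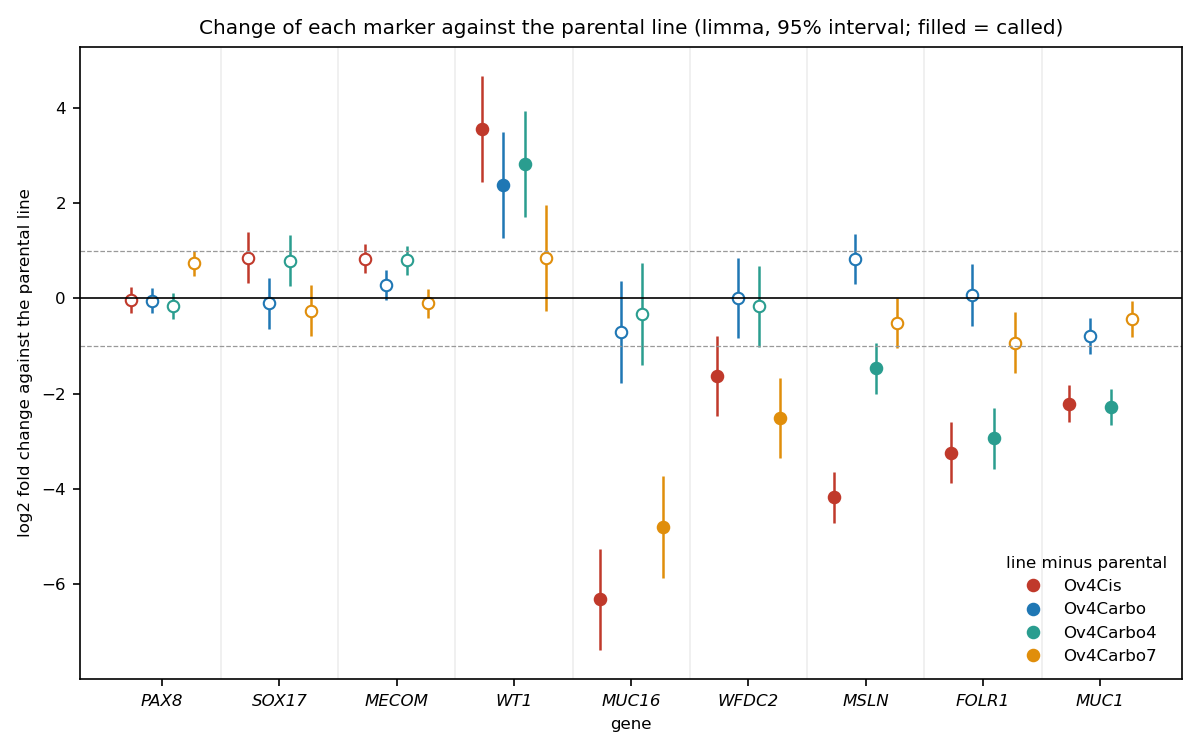
Log2 fold change of each marker (horizontal axis) in the 4 resistant lines against the parental line (vertical axis, log2 units), with 95% intervals from limma. Filled points passed the call and open points did not, and dashed lines mark a change of 1. MUC16 and WFDC2 are filled below 0 in Ov4Cis and Ov4Carbo7, and MSLN, FOLR1 and MUC1 in Ov4Cis and Ov4Carbo4.

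The sample titles carry numbers in 2 series, which the labels do not call a batch. All samples of the clones and replicate 1 of Ov4Carbo are in 1 series and the parental, Ov4Cis and other Ov4Carbo samples in the other, so the series are bridged by the Ov4Carbo samples only. The Ov4Cis values against the parental line and the difference between the clones lie within a series. Comparisons of Ov4Cis with either clone cross the series, and those with Ov4Carbo cross them in part. With a term for the series, which rests on Ov4Carbo alone, MSLN in Ov4Carbo4 was -1.09 (limma adjusted p = 0.0856) and WFDC2 in Ov4Carbo7 was -1.50 (adjusted p = 0.102), neither called, while MUC16 in Ov4Carbo7 was -3.95 (adjusted p = 0.00801), FOLR1 in Ov4Carbo4 -2.38 (adjusted p = 0.00621) and MUC1 in Ov4Carbo4 -2.36 (adjusted p = 4.36e-04), all called. SOX17 and MECOM in Ov4Carbo4 were 0.17 (adjusted p = 0.791) and 0.41 (adjusted p = 0.192) with this term, and PAX8 in Ov4Carbo7 was 0.49 (adjusted p = 0.110). In Ov4Cis against Ov4Carbo7 it removed the calls of WT1 (2.03, adjusted p = 0.128) and MUC16 (-2.37, adjusted p = 0.0665). MECOM became called there (1.34, adjusted p = 0.00196), as did SOX17 in Ov4Cis against Ov4Carbo (1.16, adjusted p = 0.0034).

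The genes whose levels followed a member most closely over the 15 samples were found for each member, as a description. For MUC16 they were EPS8L1 (Pearson r 0.977) and EPCAM (0.976), the latter a surface protein of epithelial cells. For WFDC2 they were SMIM24 (0.969) and RINL (0.945), for MSLN SLC12A8 (0.976) and CHCHD7 (0.965), for FOLR1 SVIP (0.957) and SERAC1 (0.940), and for MUC1 RPS6KA2 (0.956) and SLC6A12 (0.952). For PAX8 they were ERO1A (0.956) and RRAGA (0.945), for SOX17 TOM1L2 (0.963) and GJA4 (0.949), for MECOM RESF1 (0.967) and OSBPL5 (0.960), and for WT1 NOSTRIN (0.940) and RGS2 (0.939). The mean log2 RPKM of EPS8L1 was 4.66 for parental cells, -4.65 for Ov4Cis and -1.19 for Ov4Carbo7, with 3.10 in Ov4Carbo and 3.40 in Ov4Carbo4, the same low lines as MUC16. GJA4, an arterial connexin, stood at 4.47 in Ov4Cis and 3.59 in Ov4Carbo4 against -0.69 in the parental line.

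Among other genes of the tubal secretory and serous type more fell than rose in each resistant line. Of 30 such genes, 27 had a row. Ov4Cis had 20 falls and 2 rises, with a median log2 fold change of -2.58. In Ov4Carbo 10 fell and 0 rose (median -0.90), in Ov4Carbo4 13 fell and 1 rose (-0.98), and in Ov4Carbo7 19 fell and 3 rose (-2.07). Among all genes 7.41%, 6.93%, 7.7% and 7.75% were called lower in the same order. The keratin gene KRT7 fell from 8.28 ± 0.16 log2 RPKM (SD, n = 3) among parental samples to -0.57 ± 0.46 (SD, n = 3) in Ov4Cis, a log2 difference of -8.85 (SE 0.26, limma adjusted p = 1.74e-10). KRT19 changed by -8.65 and the serine protease gene PRSS8 by -8.14 in the same line. The genes that rose were CP, the ceruloplasmin gene, and PRAME in Ov4Cis, PRAME in Ov4Carbo4, and CP, PRAME and OVGP1, the oviductal glycoprotein gene, in Ov4Carbo7. CP fell by 3.74 in Ov4Carbo4. These were named after their values were seen. A decline of epithelial genes in these lines was already known from earlier work on the same data, so the list is not independent evidence.

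**Figure D3:**
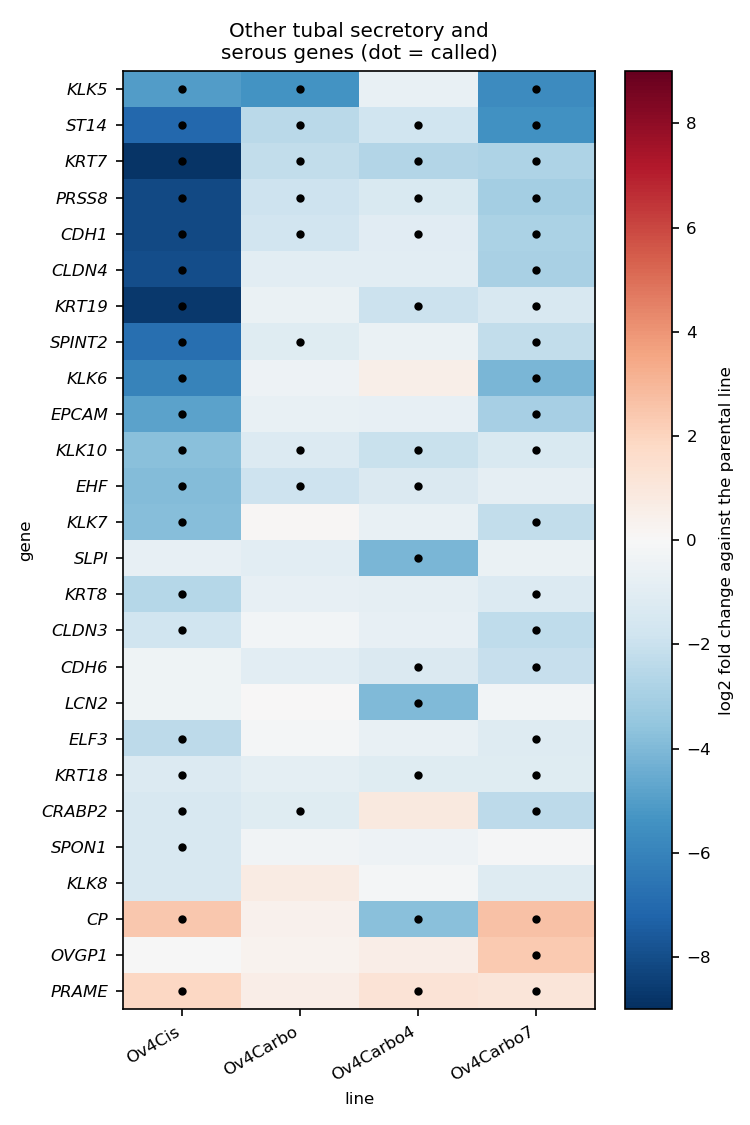
Log2 fold change against the parental line (colour scale, log2 units) of the other tubal secretory and serous genes (vertical axis; 1 of the 27 with a row is not shown), in the 4 resistant lines (horizontal axis). A dot marks a call, and most of the Ov4Cis column lies below 0, with 2 called rises.

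Transcription factors changed in both directions. Of 20 further Müllerian and lineage factors, 15 had a row, and 5 rose and 3 fell in Ov4Cis, 3 and 2 in Ov4Carbo, 3 and 1 in Ov4Carbo4, and 3 and 3 in Ov4Carbo7, with median log2 fold changes of -0.04, -0.27, 0.07 and -0.20. The shares of all genes called in either direction were 15.9%, 12.7%, 15.1% and 17% in the same order. HOXA11, a patterning gene of the lower Müllerian tract, rose from -0.58 ± 0.45 to 4.01 ± 0.08 log2 RPKM in Ov4Cis (SD, n = 3 each; log2 fold change 4.59, SE 0.17, limma adjusted p = 1.53e-09), and HOXA10 rose by 2.75 there. HOXA11 was also called higher in Ov4Carbo (1.76), Ov4Carbo4 (1.75) and Ov4Carbo7 (2.76), and HOXA10 in Ov4Carbo (1.06) and Ov4Carbo7 (2.01). SOX9 fell by 2.72 in Ov4Carbo7 (SE 0.23, adjusted p = 2.08e-06) and was also called lower in Ov4Cis (-2.10) and Ov4Carbo (-1.17).

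Among 16 other surface targets of antibody drugs, 13 had a row, and 8 fell in Ov4Cis, 6 in the Ov4Carbo population, 7 in its clone Ov4Carbo4 and 8 in its clone Ov4Carbo7, where 7.41%, 6.93%, 7.7% and 7.75% of all genes were called lower. The 1 rise was that of ERBB2 in Ov4Carbo4, by 1.59 (SE 0.19, limma adjusted p = 3.08e-05), named after its value was seen. VTCN1, which encodes B7-H4, stood at 4.09 ± 0.35 log2 RPKM (SD, n = 3) among parental samples and -4.58 ± 0.40 (SD, n = 3) among Ov4Carbo samples. It fell by 8.68 (SE 0.40, limma adjusted p = 3.82e-08), and as log2(RPKM + 1) the value was -4.12. VTCN1 was also called lower in Ov4Cis (-7.89), Ov4Carbo4 (-4.47) and Ov4Carbo7 (-6.42), so its loss was not particular to Ov4Carbo. Ov4Carbo thus lost VTCN1 while MUC16, WFDC2, MSLN and FOLR1 were not called in it. EPCAM, which also belongs to the secretory list, changed by -4.81 in Ov4Cis and by -2.97 in Ov4Carbo7.

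Genes around single members were counted in the same way. Of 16 other folate genes 13 had a row, with 0 called in Ov4Cis and Ov4Carbo, 1 in Ov4Carbo4 (MTHFD1L, -1.36, limma adjusted p = 9.21e-05) and 1 in Ov4Carbo7, beside the fall of FOLR1 in Ov4Cis and Ov4Carbo4. At the same call, 15.9%, 12.7%, 15.1% and 17% of all genes passed. Of 14 other mucin genes 3 had a row, and MUC4 stood at 1.04 ± 0.93 log2 RPKM (SD, n = 3) among parental and -5.82 ± 1.78 (SD, n = 3) among Ov4Cis samples, a log2 fold change of -6.86, or -1.62 as log2(RPKM + 1). MUC4 was also called lower in Ov4Carbo (-5.27), Ov4Carbo4 (-5.45) and Ov4Carbo7 (-5.42). The mucins called lower numbered 3 in Ov4Cis and in Ov4Carbo and 2 in each clone. Of all genes 7.41%, 6.93%, 7.7% and 7.75% were called lower in Ov4Cis, Ov4Carbo, Ov4Carbo4 and Ov4Carbo7. Of 12 genes of the WAP domain family of WFDC2, 3 had a row, and SLPI, a secreted protease inhibitor, changed by -4.13 (SE 0.27, adjusted p = 2.90e-07) and PI3, the elafin gene, by -4.31 in Ov4Carbo4, while WFDC1 rose by 3.63 there (SE 0.28, adjusted p = 1.11e-06), to a mean still under 1 RPKM. WFDC2 itself differed from the parental line by -0.17 in Ov4Carbo4 (95% interval -1.02 to 0.67).

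Of 25 estrogen response genes 18 had a row, and PGR, TFF1 and TFF3, which are classical targets of the receptor, had none. Ov4Cis had 3 rises and 3 falls, Ov4Carbo 2 and 1, Ov4Carbo4 2 and 4, and Ov4Carbo7 4 and 2, where 15.9%, 12.7%, 15.1% and 17% of all genes were called in either direction. These counts are read against those shares, and with 18 genes the Ov4Carbo count is near its share. GREB1, also a target, rose by 4.27 in Ov4Carbo7 (SE 0.53, limma adjusted p = 4.01e-05) to 1.69 ± 0.04 log2 RPKM (SD, n = 3). It was also called higher in Ov4Cis, by 3.45. FOXA1, which opens chromatin for the receptor, changed by -3.49 in Ov4Carbo4 and by -3.22 in Ov4Cis, both called. Of 15 genes described as WT1 targets 10 had a row, with 2 rises and 4 falls in Ov4Cis and 0 and 3, 1 and 4, and 0 and 4 in Ov4Carbo, Ov4Carbo4 and Ov4Carbo7, beside the same shares of all genes. IGFBP5 was called lower in every resistant line, by -8.40 in Ov4Carbo, -7.44 in Ov4Cis, -5.90 in Ov4Carbo4 and -7.80 in Ov4Carbo7. ERBB3 changed by -5.12 in Ov4Cis and -3.35 in Ov4Carbo7. ETS1 changed by -1.99 in Ov4Carbo4 and -1.17 in Ov4Carbo.

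MSLN and WT1 are also markers of mesothelium, the lining of the peritoneum. Of 12 other mesothelial markers 7 had a row, and their summed level ran from 80.2 to 116 RPKM in the parental samples, 65.1 to 72.6 in Ov4Carbo, 40.1 to 66.3 in Ov4Cis, 33.2 to 35.4 in Ov4Carbo7 and 20.8 to 21.9 in Ov4Carbo4. The sum was mostly UPK3B, which fell by 2.58 in Ov4Carbo4 (SE 0.20, limma adjusted p = 1.05e-06). Other members of the list went the other way. BNC1 was called higher in all 4 resistant lines, by 1.56 in Ov4Carbo, 1.78 in Ov4Carbo7, 1.82 in Ov4Carbo4 and 2.37 in Ov4Cis, and GATA4 by 6.19 in Ov4Cis and 1.47 in Ov4Carbo4, both at line means under 1 RPKM. In all, of the 7 markers 2 were called higher and 2 lower in Ov4Cis, 1 and 1 in Ov4Carbo, 2 and 3 in Ov4Carbo4, and 1 and 3 in Ov4Carbo7. Among all genes 15.9%, 12.7%, 15.1% and 17% were called in either direction, in the same order. CALB2, PRG4, ITLN1, THBD and HAS1 had no row. The lowest sum was thus in Ov4Carbo4 and the lowest MSLN in Ov4Cis, and the part of these markers in the MSLN result was not tested. Of 10 leukocyte markers 2 had a row, with summed levels of at most 1.96 RPKM, and PTPRC had none. Of 10 markers of ciliated tubal cells 5 had a row, and they summed to 19.3 to 20.4 RPKM in Ov4Carbo4 against 11.1 to 12.9 in the parental line. The sums were 5 to 7.84 in Ov4Cis, 4.93 to 9.26 in Ov4Carbo and 6.26 to 7.83 in Ov4Carbo7. CAPS was the highest gene in Ov4Carbo4, and its difference from the parental line, 0.94, was not called. In that line FOXJ1 was called higher (2.12) and DNAH5 lower (-1.43). Of 8 granulosa and stromal markers 2 had a row, with sums of 7.17 to 14.4 RPKM. Fibroblast markers summed to at most 14.6 RPKM, with COL1A1 highest in each line.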

How the data were processed

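Per the labels' protocols, RNA from 15 cultures was prepared with a column kit and polyA libraries were made at a sequencing centre. The authors deposited 1 table of log2 RPKM values after conditional quantile normalization, as its name states. The name also mentions a threshold, and its rule is not given in the sources used here. BWA 0.7.15-r1140, HTSeq, hg19 and GRCh37 are named in the submitters' processing notes, with no roles. The annotation and the strand setting are not given in the sources used here. Without strand, reads of PAX8, WT1, FOLR1 and MECOM cannot be told from those of antisense genes that overlap them in GENCODE v29. On the same strand, AL713999.1 overlaps MUC1, and RPL22P1 and AC007849.1 overlap MECOM. Strand would not separate the reads of these.

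Symbols matched 15585 of 16604 genes. Values were fitted as deposited with limma 3.58.1 in R 4.3.3 (1 coefficient per line, 15 samples, two-sided), with Benjamini-Hochberg adjustment over all genes in each of 10 contrasts. The script was tested on simulated data. Alternatives were the log2(RPKM + 1) scale, a filter on the mean, median centring, a variance trend, a replicate block, a title series term, only the groups compared, the adjusted p alone and leaving out each replicate. Replicate numbers did not pair the samples. The members and lists were chosen with earlier results of these data known. From other lists, up to 3 called genes were named, with the largest change against the parental line, a higher mean of at least log2 RPKM 1 and values not overlapping the parental ones. Values of some genes that this rule names are not reported here. For each member the 2 most correlated genes with a line mean of at least log2 RPKM 1 were named. Figures used Python 3.11.15 and matplotlib 3.10.9.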

Additional observations from a re-analysis of the deposited data

Results flagged for a closer look

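MSLN is listed because its change against the parental line went opposite ways in resistant lines and the difference between them passed limma's test. Ov4Carbo was above the parental line by 0.82 and Ov4Cis below it by -4.18, a difference of -4.99 (adjusted p = 2.47e-08). Ov4Carbo4, a clone of Ov4Carbo, was below the parental line by -1.47, a difference of -2.29 from Ov4Carbo (adjusted p = 2.54e-05). The 3 samples of Ov4Carbo lay above all samples of Ov4Cis and Ov4Carbo4.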

How the results depend on the processing

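Of 90 member values over the 10 comparisons 40 were called, and 0 of the 40 turned sign. As log2(RPKM + 1) 8 lost the call and with a title series term 5 did. Fitting only the groups compared cost 1 call, and no called value was lost by the filter among the members it kept, by median centring, a variance trend or a replicate block. The replicate block left MUC16 in Ov4Carbo7 against the parental line at -4.81 (limma adjusted p = 3.71e-05). Replicate numbers did not pair the samples (correlations of same-numbered deviations from -0.39 to 0.44), and 5 of 15 samples were nearest to their own number.

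A filter on a mean log2 RPKM of at least 1 removes WT1, MSLN and FOLR1, so fewer members are tested. The number called against the parental line then went from 6 to 3 in Ov4Cis, 4 to 1 in Ov4Carbo4 and 1 to 0 in Ov4Carbo. It went from 3 to 1 for Ov4Carbo4 and 4 to 2 for Ov4Carbo7 against Ov4Carbo, and to 3 for Ov4Cis against Ov4Carbo and against Ov4Carbo7. The Ov4Carbo count against the parental line was also 0 as log2(RPKM + 1) and when only the groups compared were fitted. With a title series term the Ov4Carbo7 count against the parental line was 1. By the adjusted p alone the counts were 3 for Ov4Carbo and 4 for Ov4Carbo7 against the parental line, and 5 for Ov4Carbo4 and 7 for Ov4Carbo7 against Ov4Carbo. The title series term also turned the sign of uncalled values, to 0.52 for MUC16 and 0.84 for WFDC2 in Ov4Carbo4 against the parental line, 0.50 for WFDC2 in Ov4Carbo4 against Ov4Carbo and -0.14 for WFDC2 in Ov4Cis against Ov4Carbo7. For these settings the cause was not tested.

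Leaving out each replicate gave 1 to 2 calls in Ov4Carbo and 2 to 4 in Ov4Carbo7 against the parental line. Uncalled values that turned sign ranged, in Ov4Carbo against the parental line, from -0.14 to 0.09 for PAX8, -0.42 to 0.34 for WFDC2, -0.15 to 0.29 for FOLR1 and -0.32 to 0.08 for SOX17. In Ov4Carbo4 against the parental line they ranged from -0.60 to 0.16 for MUC16 and -0.35 to 0.09 for WFDC2. WFDC2 in Ov4Carbo4 against Ov4Carbo ranged from -0.52 to 0.25, SOX17 in Ov4Carbo7 against Ov4Carbo from -0.26 to 0.06, and PAX8 in Ov4Cis against Ov4Carbo from -0.13 to 0.10. In Ov4Cis against Ov4Carbo4, SOX17 ranged from -0.13 to 0.34 and MUC1 from -0.05 to 0.20. Of the 40 called values 3 lost the call when a replicate was left out. Where a line kept 2 samples, limma's pooled spread was used.

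With 3 samples per line and depth unknown, values under 1 RPKM are the least certain. The p-values measure the spread between cultures of 1 line each.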
